A study of Homo sapiens with 12 samples.

Results

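Metallothioneins are small cysteine-rich proteins that bind zinc and copper, and their genes were followed together with 2 genes of the zinc response in HepG2, a human hepatocellular carcinoma line, during insulin stimulation. The 8 genes were chosen by symbol as rows of the deposited table of gene counts, out of 26364 genes in that table. They are the metallothionein genes MT1E, MT1F, MT1G, MT1M, MT1X and MT2A, the zinc-sensing transcription factor MTF1, and SLC30A1, which encodes the zinc exporter ZnT1 of the plasma membrane. RNA-seq libraries were available at 0, 5, 10, 30 and 240 min after insulin stimulation, with 2 replicates at each time and 10 libraries in all. No library followed cells without insulin over the same times. Changes due to insulin therefore cannot be told apart from those due to time or the medium. The text deposited with every library, those at 0 min included, describes 16 h in EMEM followed by EMEM with BSA and 3 nM insulin for 5 min, so the times used here are those of the library titles. An insulin receptor (IR) ChIP-seq peak list of HepG2 cells, from 1 library and without a replicate, was also used, and the text with it gives 2 days in EMEM, a further 2 days with insulin and BSA, a 30 min washout and then 3 nM insulin. The preparation texts of the 2 assays are exchanged in the labels, and whether the treatment texts are too is not known, so the cells of either assay may have had the treatment listed for the other. The labels do not say that replicates were separate cultures. The study's methods describe a single RNA-seq experiment on biologically independent samples, without saying how separate these were. The p-values below measure the spread between these samples.

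In liver cells, metallothioneins hold a reserve of zinc, and their transcription rises when free zinc rises. MTF1 binds zinc and then attaches to short promoter elements, the metal response elements, at metallothionein genes and at SLC30A1, so that surplus zinc is both bound and exported. Metallothionein genes are also known to respond to glucocorticoids, cytokines and oxidative stress. In bulk RNA, fewer cells that express a gene and less RNA per cell cannot be told apart.

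The promoters of MT2A and MT1X are shown because these metallothioneins had the smallest and the largest fitted change at 240 min, and that of SLC30A1 because it is the member with an IR peak. RefSeq promoter sequences (GRCh38.p14) were found for 4 of the 8 genes, namely MT1X, MT2A, MTF1 and SLC30A1. The 250 bases before the start are printed in the direction of the gene, for MT2A at chr16:56608334-56608583 (plus strand), for MT1X at chr16:56682220-56682469 (plus strand) and for SLC30A1 at chr1:211579162-211579411 (minus strand). Capitals mark matches, on either strand, to the core of the metal response element, searched as TGCACNC and TGCGCNC.
MT2A: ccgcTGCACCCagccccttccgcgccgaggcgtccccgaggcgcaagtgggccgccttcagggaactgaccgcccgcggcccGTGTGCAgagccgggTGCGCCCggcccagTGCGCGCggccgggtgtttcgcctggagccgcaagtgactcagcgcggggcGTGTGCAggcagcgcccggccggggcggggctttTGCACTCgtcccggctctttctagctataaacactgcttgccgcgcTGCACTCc
MT1X: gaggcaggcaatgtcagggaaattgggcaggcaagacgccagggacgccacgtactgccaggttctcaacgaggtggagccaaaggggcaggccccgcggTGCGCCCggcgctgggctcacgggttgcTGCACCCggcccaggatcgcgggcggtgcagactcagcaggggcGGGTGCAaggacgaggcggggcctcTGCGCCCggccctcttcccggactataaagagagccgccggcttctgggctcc
SLC30A1: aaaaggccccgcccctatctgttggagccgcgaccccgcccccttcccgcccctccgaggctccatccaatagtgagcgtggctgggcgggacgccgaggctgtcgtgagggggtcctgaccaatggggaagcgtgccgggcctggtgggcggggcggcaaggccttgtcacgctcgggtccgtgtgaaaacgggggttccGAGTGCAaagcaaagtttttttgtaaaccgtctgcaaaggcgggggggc
The MT2A promoter held 7 matches, the most distant beginning 246 bases before the start and the nearest 8 bases before it. The MT1X promoter held 4 matches, beginning 150, 122, 78 and 53 bases before the start. The SLC30A1 promoter held 1 match, 49 bases before the start, and the MTF1 promoter held 0. No match overlapped another in these promoters. Of 35116 promoters in the same table, 24.8% held at least 1 match, 0.37% at least 4 and 0.0513% at least 6. A match is a run of letters and not a measured binding site.

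The 6 metallothionein genes lie in 1 cluster on chromosome 16 of hg19, the build of the deposited files, within 75.6 kb from MT2A (56642478 to 56643409, plus strand) to MT1X (56716382 to 56718108, plus strand). MT1E (56659585 to 56661024), MT1M (56666534 to 56667898) and MT1F (56691855 to 56693215) are also on the plus strand and MT1G (56700647 to 56701977) is on the minus strand. The table listed 15 metallothionein genes and pseudogenes there over 119.0 kb, and 0 of them overlapped a neighbour. These genes resemble each other closely. In GENCODE protein-coding transcripts, the share of 50-base stretches, the read length given in the study's methods for RNA-seq, that occur in no other gene was 53.6% for MT1X, 84% for MT1G, 92.6% for MT2A, 92.9% for MT1E and 94.9% for MT1F. How reads that fit several copies were counted is not given in the sources used here, so counts of single metallothionein genes, those of MT1X above all, are uncertain by the reads they may share.

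Between 18347109 and 45005769 reads per library fell on genes, the fewest in 240 min replicate 2 and the most in 0 min replicate 2. Of the 26364 genes, 13852 passed the filter on low counts and were tested, among them 7 of the 8 members. Hepatocyte markers were high in every library, with ALB, the gene of serum albumin, at 15800 to 22300 TPM (a level per length, scaled to a fixed total per library), and the summed level of 9 such markers was 48900 to 49600 TPM at 0 min and 40400 to 50200 TPM at 240 min. Markers of other cell types summed to 56.3 to 62.4 TPM at 0 min and 59.3 to 60.6 TPM at 240 min over 5 genes, nearly all of it CD68 (48.7 to 60.3 TPM), with the leukocyte marker PTPRC at 0 reads in every library.

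At 240 min, 5 of the 7 tested members were higher than at 0 min and 0 were lower. They were the 4 MT1 genes MT1X, MT1G, MT1E and MT1F, with rises of 4.45-, 3.09-, 2.65- and 2.40-fold, and SLC30A1, with a rise of 1.26-fold. For MT2A and MTF1 the test was not passed. These calls are from edgeR's quasi-likelihood test over all 10 libraries, with an adjusted p (Benjamini-Hochberg over all tested genes) under 0.05. Over all genes tested 41% changed in this comparison, 20.6% higher and 20.4% lower. The median log2 fold change was 1.26 over the 7 tested members and -0.00257 over all tested genes. The members were chosen with earlier results of these data known, so this contrast is only a description. With limma on TPM the members called were 3, namely MT1X, MT1E and SLC30A1, and without 240 min replicate 2 they were also 3, MT1X and MT1E higher and MT2A lower.

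**Figure D1:**
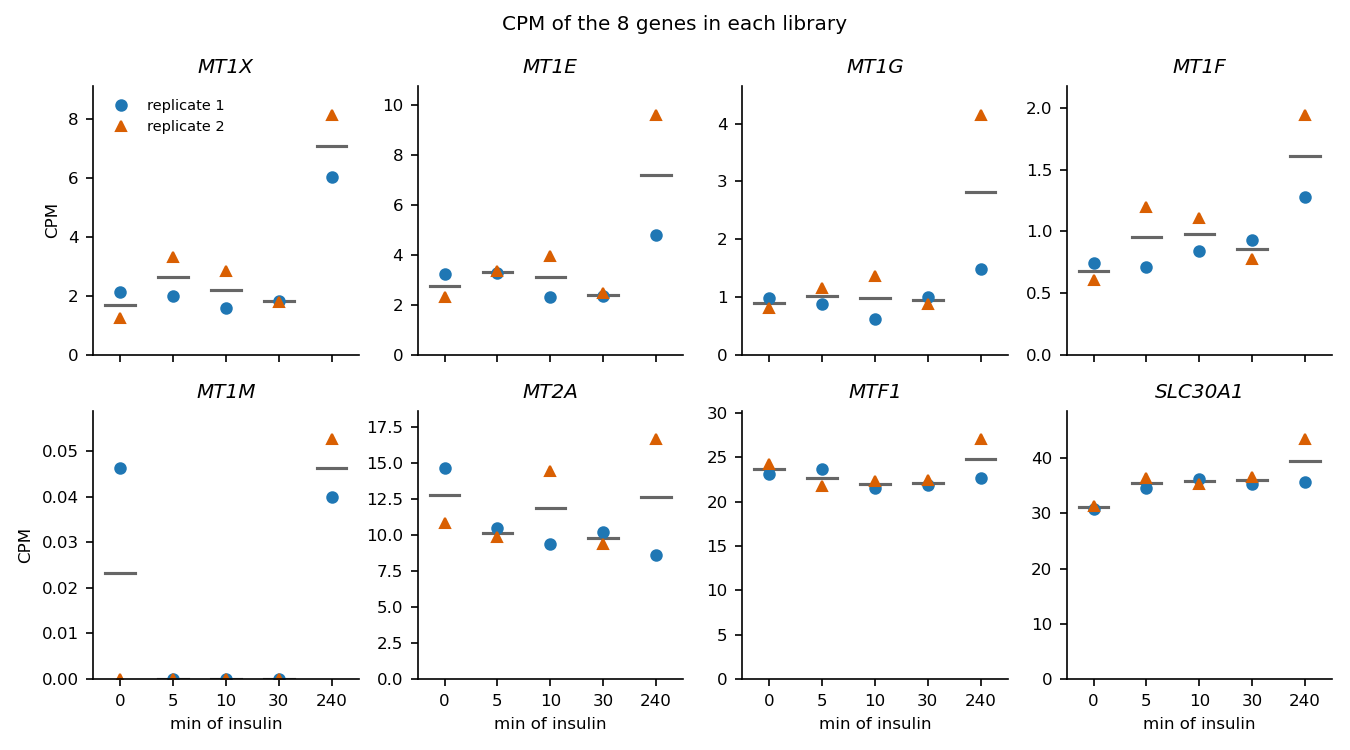
Level of each of the 8 genes in every library, in CPM (counts scaled to library size after normalization, y axis, starting at 0 and scaled separately for each gene), against the time after insulin (x axis, min). Circles are replicate 1, triangles replicate 2 and grey lines the mean of both; MT1X, MT1E, MT1G and MT1F are highest in the 240 min libraries, the 240 min values of MT2A are its lowest and its highest, and MT1M does not exceed 1 read in a library.

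MT1X, one of the ubiquitous metallothionein 1 isoforms, had the largest change. Its level was 2.13 and 1.26 CPM in the 0 min pair, 1.98 and 3.30 after 5 min, 1.57 and 2.85 after 10 min, 1.83 and 1.80 after 30 min and 6.03 and 8.15 after 240 min. Both 240 min libraries lay above all 8 earlier ones, whose highest value was 3.30 CPM. These levels rest on 46 and 56 reads at 0 min and 151 and 155 at 240 min. Mean levels were 1.70 ± 0.620 CPM at 0 min and 7.09 ± 1.49 CPM at 240 min (SD, n = 2 each), which is a log2 fold change of 2.15 ± 0.26 (SE, 95% interval 1.61 to 2.70, edgeR adjusted p = 2.25e-06). In the 4 fits that left out 1 library at 0 or 240 min, the change ran from 1.71 to 2.47.

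MT1E, another MT1 isoform, was also highest at 240 min. It stood at 3.25 and 2.29 CPM in the 0 min pair, 3.28 and 3.35 after 5 min, 2.29 and 3.96 after 10 min, 2.33 and 2.48 after 30 min and 4.8 and 9.62 after 240 min. The 240 min libraries were the highest of the 10, but they differed widely from each other. The log2 fold change was 1.41 ± 0.26 (SE, edgeR adjusted p = 0.000278), and it was 0.85 (adjusted p = 0.0124, edgeR) without 240 min replicate 2.

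MT1G, the 1 member of the cluster on the minus strand, was at 0.97 and 0.81 CPM in the 0 min pair, 0.87 and 1.15 after 5 min, 0.61 and 1.36 after 10 min, 1.0 and 0.87 after 30 min and 1.48 and 4.15 after 240 min. Here 240 min replicate 1 lay only just above the highest earlier value of 1.36 CPM, and replicate 2 lay far above it. The log2 fold change was 1.63 ± 0.38 (SE, edgeR adjusted p = 0.00216), and without 240 min replicate 2 it was 0.76 and did not pass (adjusted p = 0.127, edgeR). It also did not pass with limma on log2(TPM + 1) (adjusted p = 0.0517).

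MT1F had the fewest reads of the tested members, 16 and 27 in the 0 min libraries against 32 and 37 in the 240 min ones. Its level was 0.74 and 0.61 CPM in the 0 min pair, 0.71 and 1.20 after 5 min, 0.84 and 1.11 after 10 min, 0.93 and 0.78 after 30 min and 1.28 and 1.94 after 240 min. The groups at 0 and 240 min did not overlap, while 240 min replicate 1 lay close to the highest earlier library. The log2 fold change was 1.26 ± 0.31 (SE, edgeR adjusted p = 0.00321). It did not pass without 240 min replicate 2 (0.96, adjusted p = 0.0553, edgeR) or without 0 min replicate 2 (1.08, adjusted p = 0.0693, edgeR). It also did not pass with limma on TPM (adjusted p = 0.397), in which MT1F is listed at 0 in 5 min replicate 1 and 10 min replicate 2 although 18 and 26 reads were counted on it there.

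MT2A, the metallothionein with the highest level in these cells, was not called at any time. It stood at 14.7 and 10.8 CPM in the 0 min pair, 10.5 and 9.86 after 5 min, 9.40 and 14.4 after 10 min, 10.2 and 9.37 after 30 min and 8.59 and 16.7 after 240 min. The 240 min replicates were the lowest and the highest of the 10 libraries, so they enclosed every value at 0 min. The log2 fold change at 240 min was -0.013 ± 0.21 (SE, 95% interval -0.46 to 0.44, edgeR adjusted p = 0.967). It was 0.42 (adjusted p = 0.0946, edgeR) without 240 min replicate 1 and -0.53 (adjusted p = 0.046, edgeR) without 240 min replicate 2, so that the 2 libraries at this time give opposite directions.

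MT1M was all but undetected, with 1 read in 0 min replicate 1, 1 read in each 240 min library and 0 reads in the other 7 libraries. A count of 0 allows up to 3 reads, which is 0.0673 to 0.146 CPM over these 7 libraries. It did not pass the filter on low counts, and a change of this gene was not detectable at this depth.

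**Figure D2:**
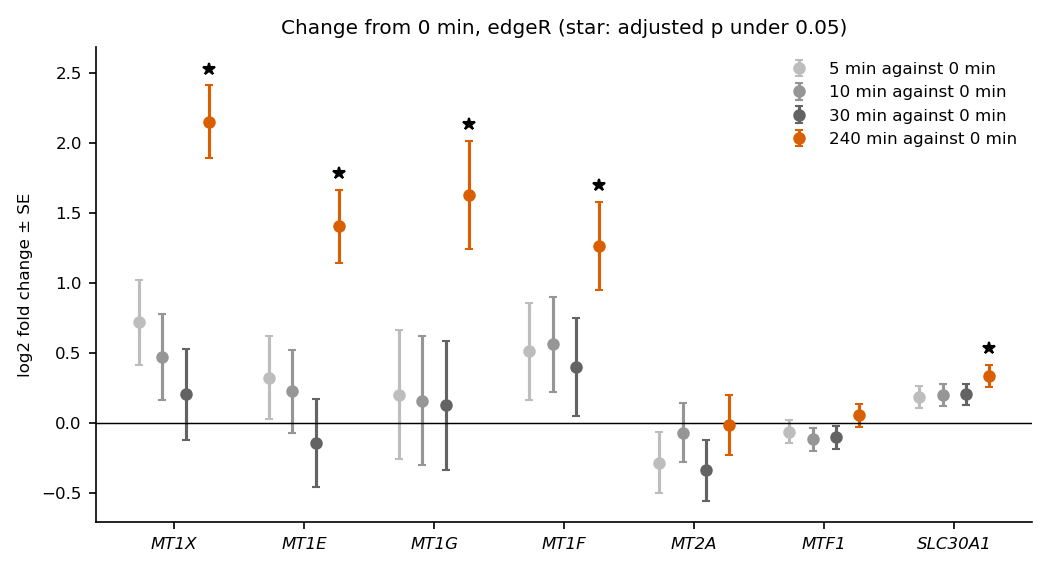
Change of the 7 tested members from 0 min, as log2 fold change ± standard error from edgeR (y axis), for 5, 10 and 30 min (greys) and 240 min (orange), from 2 libraries per time. Stars mark an adjusted p under 0.05; the 5 stars are all at 240 min, on the 4 MT1 genes and on SLC30A1, and the MT2A and MTF1 points at 240 min lie near 0.

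Within a library, the reads of the MT1 genes can be set against those of MT2A, a measure that does not depend on how libraries are scaled. MT1E had 0.212 to 0.34 reads per MT2A read in the 8 libraries up to 30 min and 0.558 and 0.577 in the 240 min libraries. The 240 min replicates, which differed widely in the level of MT1E itself, were close together in this ratio. MT1X had 0.116 to 0.335 reads per MT2A read in the earlier libraries and 0.702 and 0.489 at 240 min. For MT1G the ratio was 0.065 to 0.117 before and 0.172 and 0.249 at 240 min, also without overlap. For MT1F it was 0.0505 to 0.121 before and 0.149 and 0.117 at 240 min, so 1 of the 240 min libraries lay within the earlier range. MT2A took 52.3% to 68.6% of the reads on the metallothionein members in the earlier libraries and 38.7% and 41.1% at 240 min. These ratios, and the pooling of the earlier times, were chosen after the values were seen, so they are given as a description with no test.

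**Figure D3:**
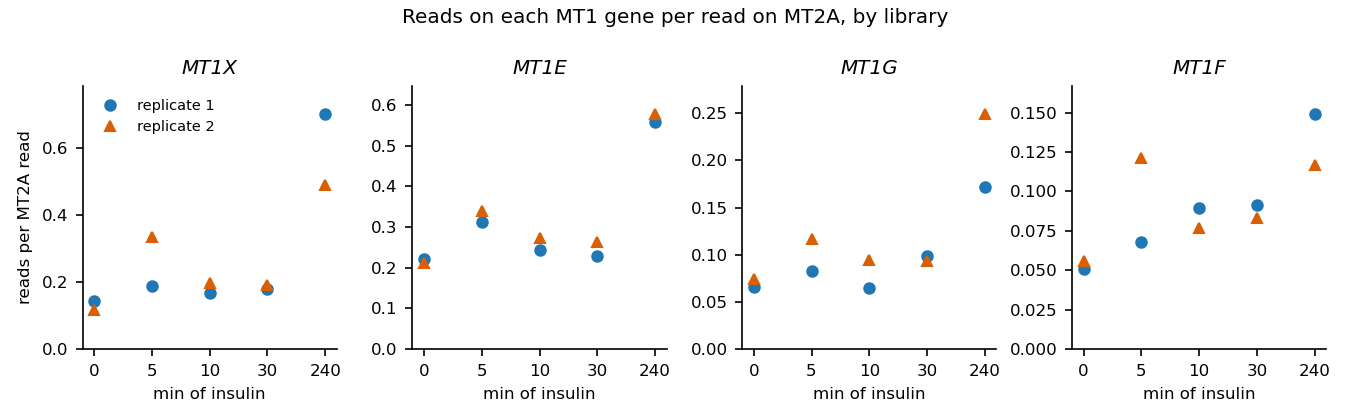
Reads on MT1X, MT1E, MT1G and MT1F per read on MT2A (y axis, starting at 0, scaled separately) in each library against the time after insulin (x axis, min), with circles for replicate 1 and triangles for replicate 2. For MT1X, MT1E and MT1G both 240 min libraries lie above all 8 earlier ones, and for MT1F 1 of them does.

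The level per length, in TPM, gives the order among the members. MT2A ran from 52.2 to 105 TPM over the 10 libraries, SLC30A1 from 37.3 to 55.0, MT1X from 9.27 to 55.2, MT1E from 11.4 to 49.9, MT1G from 3.96 to 27.9 and MTF1 from 6.71 to 8.69. At 0 min, MT1E (15.7 and 11.4 TPM) and MT1X (mean 12.02 ± 3.88, SD, n = 2) did not differ beyond their spread, and MT2A was above both. At 240 min MT1X was at 47.6 ± 10.9 TPM and MT1E at 37.01 ± 18.2 (SD, n = 2 each), with overlapping values, and MT2A was at 78.8 ± 37.6 with 1 library below the higher MT1X value.

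**Figure D4:**
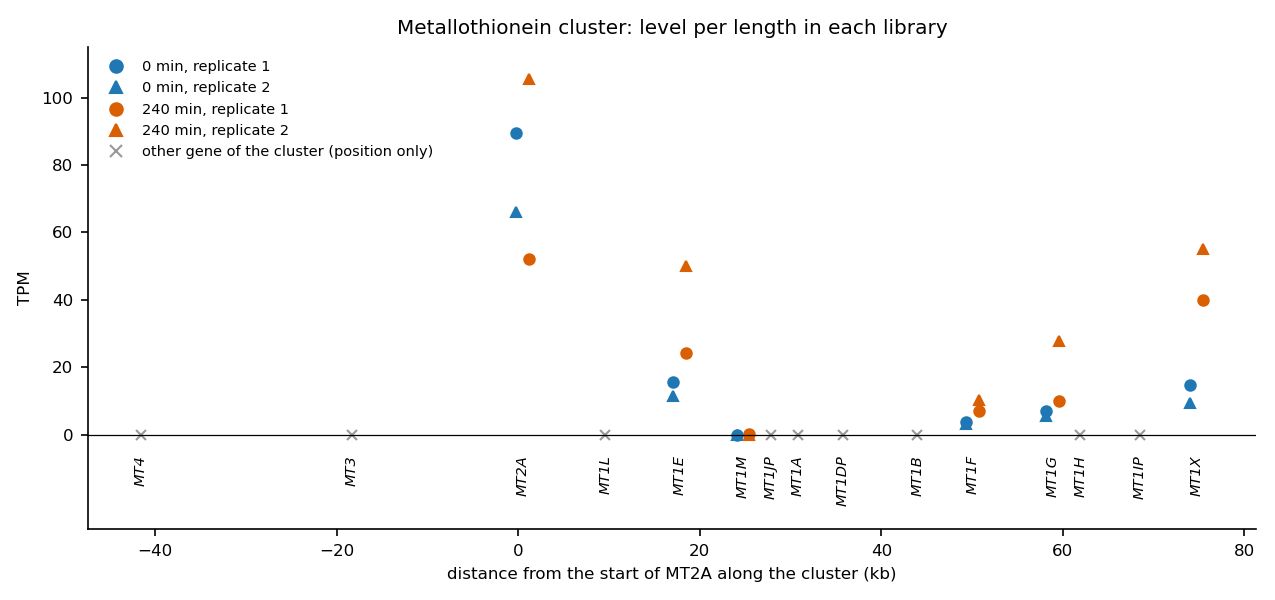
Level per length in TPM (y axis) of the metallothionein members in the 0 min (blue) and 240 min (orange) libraries, placed by the distance of each gene from the start of MT2A in kb (x axis), with circles for replicate 1 and triangles for replicate 2. Crosses give only the position of the other genes of the cluster; MT1X and MT1E are higher at 240 min in both replicates, while the 240 min values of MT2A lie on both sides of those at 0 min.

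MTF1, the zinc sensor that activates these genes (chromosome 1, 38275239 to 38325292, minus strand), kept a narrow range. It was at 23.1 and 24.2 CPM at 0 min, between 21.6 and 23.7 CPM in the 6 libraries from 5 to 30 min, and at 22.7 and 27.0 CPM at 240 min. The values at 240 min enclosed those at 0 min. The log2 fold change was 0.056 ± 0.083 (SE, 95% interval -0.12 to 0.23, edgeR adjusted p = 0.624), and it turned to -0.058 with scaling by the ERCC spike-ins, synthetic RNAs that took 1.59% of the counts in both 0 min libraries and 1.65% and 1.91% in those at 240 min, and to -0.070 without 240 min replicate 2.

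SLC30A1 (chromosome 1, 211748381 to 211752099, minus strand), a known MTF1 target that moves zinc out of the cell, was at 30.8 and 31.4 CPM in the 0 min pair, 34.5 and 36.4 after 5 min, 36.3 and 35.3 after 10 min, 35.4 and 36.5 after 30 min and 35.7 and 43.4 after 240 min. All 8 later libraries lay above both 0 min libraries. At 240 min the log2 fold change was 0.34 ± 0.076 (SE, edgeR adjusted p = 0.00148). Without 240 min replicate 2 it was 0.20 (adjusted p = 0.0548, edgeR). With ERCC scaling, which moved the median of all genes by -0.119, it was 0.22 (adjusted p = 0.539, edgeR).

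At 5, 10 and 30 min, 0 of the 7 tested members passed the threshold, where 0%, 0.137% and 0.332% of all tested genes did in edgeR. At an unadjusted p under 0.05 there were 2, 1 and 1 members, and 1976, 710 and 1125 of the 13852 tested genes. DESeq2 and the other alternatives also called 0 members at these times. The members with a small unadjusted p were SLC30A1 at all 3 times, with log2 fold changes of 0.19, 0.20 and 0.21 (adjusted p = 0.300, 0.782 and 0.462, edgeR), and MT1X at 5 min, with 0.72 (adjusted p = 0.307, edgeR). The 5 min value of MT1X came with overlapping groups.

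Against 30 min, the 4 MT1 genes were again higher at 240 min, 4 of 7 tested members where 38.2% of all tested genes changed and 19.8% were higher. These 2 comparisons share the 240 min libraries. The log2 fold changes were 1.95 for MT1X (adjusted p = 1.03e-05, edgeR), 1.55 for MT1E (0.000218), 1.5 for MT1G (0.00573) and 0.86 for MT1F (0.0367). MT2A (0.33), MTF1 (0.16) and SLC30A1 (0.13) did not pass, with 95% intervals of -0.15 to 0.80, -0.020 to 0.34 and -0.029 to 0.29. With no filter on low counts MT2A also passed (0.32, adjusted p = 0.0167, edgeR), and 5 members were called. The number of members called was 7 without 240 min replicate 1 and 2, MT1X and MT1E, without 240 min replicate 2. Without 240 min replicate 2 the change of MT1E was 0.998, and that of MT1G was 0.64 (adjusted p = 0.227, edgeR). MT1F did not pass with DESeq2 (adjusted p = 0.144), with ERCC scaling (0.13, edgeR), without 30 min replicate 1 (0.0857, edgeR) or without 30 min replicate 2 (0.143, edgeR).

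The replicates of a time differed in the same direction for most metallothioneins. All 5 tested ones were higher in replicate 1 at 0 min, and all 5 were higher in replicate 2 of the 10 min and the 240 min pairs, with 4 of 5 in replicate 2 at 5 min and 4 of 5 in replicate 1 at 30 min. At 240 min, replicate 2 had the highest level of the 10 libraries in all 7 tested members. It was also the library with the fewest reads and the largest normalization factor (1.037). The share of all tested genes that differed between replicates in these ways was not computed. With every library thinned to 18347109 reads, 5 members were called higher than at 0 min. Against 30 min, 3 in place of 4 were higher, and MT1F no longer passed (0.78, adjusted p = 0.0819, edgeR). This total is that of 240 min replicate 2, so thinning left that library as it was and cannot show why its levels were highest. What set the 2 libraries at 240 min apart was not tested.

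Of 12 other metallothionein genes listed, 10 were in the table and 0 passed the filter on low counts. MT1A, a further MT1 isoform of the cluster, had 16 reads over all libraries. MT3 and MT4, known from brain and squamous epithelium, had 0 reads. Detected metallothionein expression in these cells came nearly all from MT2A, MT1E, MT1X, MT1G and MT1F, with 2864, 897, 723, 313 and 245 reads over the 10 libraries.

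Zinc transporters fall into exporters of the SLC30 family, which move zinc out of the cytosol, and importers of the SLC39 family, which move it in. Of 9 further exporters, 6 were tested, of which 3 rose and 0 fell from 0 to 240 min (median of the 6, 0.147 on the log2 scale), where 20.6% of all tested genes rose and 20.4% fell. SLC30A5 was called lower with a replicate block and with correction for GC content and length. The number that rose was 2 with DESeq2, with limma on TPM, with thinning and with that correction. The largest rise was that of SLC30A10, which carries manganese out of the cell, at 8.63 and 8.01 CPM in the 0 min pair against 16.7 and 13.8 CPM in the 240 min pair. Both 240 min values lay above both 0 min values, with a log2 fold change of 0.89 ± 0.11 (SE, edgeR adjusted p = 3.37e-06). SLC30A10 was also the 1 exporter of the 6 that rose against 30 min, by 0.84 (adjusted p = 1.05e-05, edgeR), where 19.8% of all tested genes rose. In that comparison 1 exporter was called lower with RLE normalization, with at least 10 counts in every library and with a replicate block. With correction for GC content and length 2 were.

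Of 14 importers, 12 were tested, of which 9 fell and 1 rose from 0 to 240 min (median of the 12, -0.224 on the log2 scale), where 20.4% of all tested genes fell. The largest fall was that of SLC39A14, which carries zinc and non-transferrin-bound iron into hepatocytes. It went from 1030 and 1010 CPM to 641 and 623 CPM, without overlap, a log2 fold change of -0.69 ± 0.055 (SE, edgeR adjusted p = 1.46e-08). SLC39A8, its close relative, was the importer that rose, from 1.62 and 1.17 CPM to 2.36 and 2.79 CPM (log2 fold change 0.93 ± 0.24, edgeR adjusted p = 0.00439). Against 30 min, 7 importers were lower and 0 higher, where 18.4% of all tested genes were lower. SLC39A10 fell most (-0.52, adjusted p = 2.92e-06, edgeR). With ERCC scaling the number of all tested genes called lower went from 2829 to 728 against 0 min and from 2554 to 344 against 30 min. Against 30 min the 7 were 0 with ERCC scaling and 4 without 30 min replicate 1. The count of 9 lower importers was 3 with ERCC scaling, 6 with limma on TPM and 5 without 0 min replicate 1, and SLC39A8 did not pass with ERCC scaling or without 0 min replicate 2. The count of 3 higher exporters was 1 with ERCC scaling and 1 without 0 min replicate 2.

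**Figure D5:**
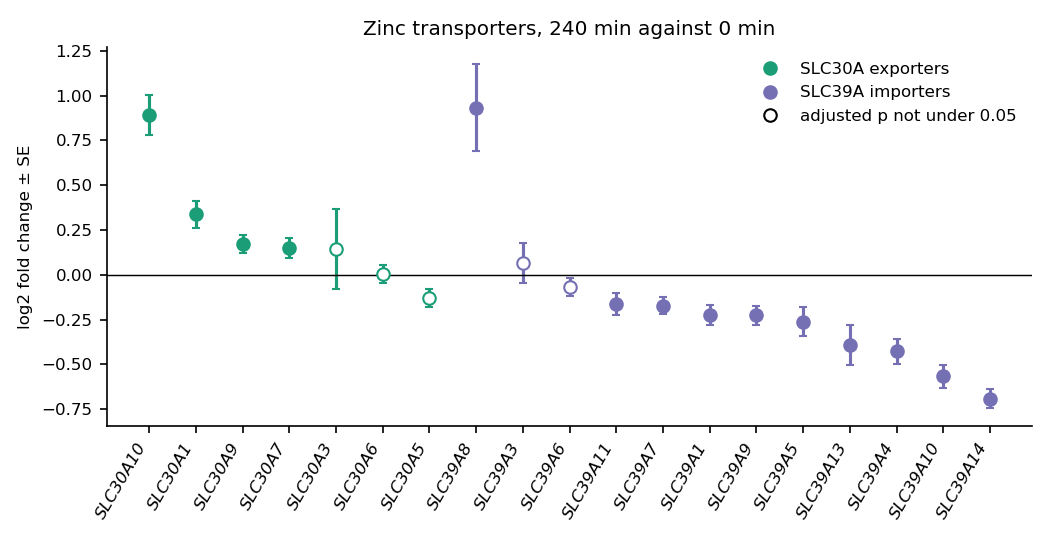
Change of the tested zinc transporters at 240 min against 0 min, as log2 fold change ± standard error from edgeR (y axis, 2 libraries per time), with exporters of the SLC30 family, SLC30A1 included, in green and importers of the SLC39 family in purple, each ordered from high to low. Filled points passed the threshold; 4 exporters are filled and higher, 9 importers are filled and lower, and SLC39A8 is filled and higher.

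Copper, the other metal that metallothioneins bind, has its own handling genes, and of 9 tested 1 was higher and 0 lower at 240 min (median log2 fold change -0.0507), against 20.6% and 20.4% of all tested genes. It was SLC31A1, the high-affinity copper importer, with 164 and 153 CPM in the 0 min pair against 182 and 172 CPM in the 240 min pair (0.16, adjusted p = 0.0353, edgeR). SLC31A1 also rose against 30 min (0.18, adjusted p = 0.0187, edgeR). Against 0 min it did not pass with DESeq2 (adjusted p = 0.0618), ERCC scaling (0.928), thinning, correction for GC content and length, or without 0 min replicate 2 or 240 min replicate 1. Against 30 min it did not pass with ERCC scaling, with that correction, in the model of only the times compared, or without 30 min replicate 2 or 240 min replicate 1. Of 9 genes known to respond to glucocorticoids, 8 were tested, of which 3 rose and 2 fell from 0 to 240 min (median 0.0159 on the log2 scale), where 41% of all tested genes changed. Among those reaching a mean of 1 CPM the largest rise was that of FKBP5, a chaperone of the glucocorticoid receptor (0.54, adjusted p = 5.23e-07, edgeR), and the largest fall that of TAT, a liver enzyme of tyrosine breakdown (-0.80, adjusted p = 0.00163, edgeR). Against 30 min 3 of these 8 were higher and 4 lower, with FKBP5 (0.67, adjusted p = 4.75e-08, edgeR) and TAT (-0.74, adjusted p = 0.00396, edgeR) again at the ends, where 38.2% of all tested genes changed. With DESeq2 FKBP5 was the 1 gene of the list that rose against 0 min, as it was with limma on TPM and without either 0 min replicate. With ERCC scaling 0 rose and TAT alone fell against 0 min, and FKBP5 alone was called against 30 min. Against 30 min FKBP5 was also the 1 gene that rose without 240 min replicate 2 or 30 min replicate 2, and TAT did not pass without 30 min replicate 1.

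IR peaks were looked for at the 8 genes, within the gene body extended by 5 kb. SLC30A1 was the 1 member of 8 with a peak, where 9.7% of the 26364 genes had one. The SLC30A1 peak runs from 211752644 to 211753036 on hg19 chromosome 1, and HOMER annotates it to the SLC30A1 promoter. It begins 141 bases upstream of the RefSeq start of the gene, located at 211752503 by finding the promoter sequence in hg19, and it shares 110 bases with the promoter stretch printed above. Its score of 59 ranks 1195 of 1971 peaks and is under the median of 79. The middle 150 of its 393 bases, chr1:211752766-211752915 on the minus strand, are shown because they hold the 2 matches of the peak to the metal response element core, in capitals, in sequence that lies farther upstream than the promoter stretch above.
SLC30A1 peak: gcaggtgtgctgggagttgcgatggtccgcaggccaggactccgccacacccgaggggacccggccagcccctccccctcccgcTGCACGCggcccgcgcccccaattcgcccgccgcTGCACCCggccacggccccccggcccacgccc
At least 2 matches were found in the middle 150 bases of 2.74% of the 1971 peaks, and at least 1 in 20.6%. The peak has a GC content of 75.3%. The metallothionein cluster had no IR peak nearby: the nearest one to MT1X was 690 kb away and that to MT2A 764 kb away, and the nearest peak to MTF1 was 87.1 kb away.

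The profile of the 5 tested metallothioneins over the 10 libraries (the mean of their log2 CPM, each centred on its own mean) was compared with those of the 10384 genes whose mean reached 5 CPM. The most alike were MIPEP, a mitochondrial peptidase (Pearson r = 0.961, Spearman rho = 0.867), HAUS2, a subunit of the augmin complex of the spindle (0.96 and 0.879), PDCD2 (0.934 and 0.782), ACTR5, a subunit of the INO80 chromatin remodeller (0.929 and 0.818), and TMEM138, a ciliary protein (0.928 and 0.83). These are the highest of many correlations over 10 libraries that share depth and scaling, and they are given as a description. The profile was highest in both 240 min libraries, so a rise at 240 min was largely built into the choice of these genes. It was at 0.41 in 240 min replicate 1 and at 1.29 in replicate 2, so the correlations lean on the latter library. In the order named, the log2 fold changes of the 5 genes from 0 to 240 min were 0.183, 0.273, 0.185, 0.219 and 0.265. MIPEP and ACTR5 did not pass the threshold (adjusted p = 0.0612 and 0.0608, edgeR).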

How the data were processed

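RNA-seq of 10 HepG2 libraries and 1 IR ChIP-seq peak list were analysed. The authors trimmed single-end reads, aligned them to hg19 with STAR 2.6.1d, counted them as reverse-stranded with featureCounts 1.6.4 and deposited raw counts per gene. The authors also deposited StringTie TPM, a level per length, which is 0 for some genes with reads. Peaks were called with MACS2 2.2.7.1 on BWA alignments and annotated by HOMER, and the score in the deposited list, the authors' own, served only to rank peaks. The peak list gives no depth.

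The 92 ERCC rows (1.59% to 2.36% of counts) were left out of library sizes. Counts were fitted with edgeR 4.0.16 in R 4.3.3 (TMM, filterByExpr, quasi-likelihood test, 1 model of 10 libraries, no replicate block). Standard errors were the fold change over the root of F. The fit was tested on simulated counts. Replicates were kept apart, since their counts differed beyond sampling noise (chi-square per degree of freedom 2.86 to 6.47). Intervals cover the spread between libraries or, for a count of 0, counting error only.

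Alternatives were DESeq2 1.42.0, other normalizations including ERCC totals, a minimum of 10 counts in every library, no filter on low counts, only the times compared, limma 3.58.1 with pseudocounts of 1 and 0.1 on TPM before log2, a replicate block, the likelihood ratio test of edgeR, correction for GC content and length, thinning, each replicate left out, and other peak distances.

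Named are the 8 members, of each wider list the largest rise and fall among changed genes with at least 1 CPM, and the 5 genes most like the metallothioneins. The members and lists were chosen with earlier results of these data known. The extraction text of the RNA libraries describes DNA and that of the ChIP libraries describes RNA, which goes against the methods of the study, and the titles were used for the times. The ChIP input library was not used here.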

Additional observations from a re-analysis of the deposited data

How the results depend on the processing

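MT1X and MT1E kept their rise at 240 min against 0 min under each of the 14 alternatives for the RNA-seq (1.91 to 2.2 and 1.26 to 1.44 on the log2 scale), and at 5, 10 and 30 min 0 members were called in any of them. With limma on log2(TPM + 1), log2(TPM + 0.1) or a mean TPM of at least 1, 3 members in place of 5 were called against 0 min and 2 in place of 4 against 30 min. With 1 replicate left out, members called ran from 3 to 5 against 0 min and from 2 to 7 against 30 min. Directions turned for MT2A against 0 min with upper-quartile normalization (0.015), without 0 min replicate 1 (0.18) and without 240 min replicate 1 (0.42). They turned for MTF1 with ERCC scaling (-0.058) and without 240 min replicate 2 (-0.070), and against 30 min without 240 min replicate 2 for MT2A (-0.19) and SLC30A1 (-0.0093), none of them called, and the cause was not tested. MT2A ran from -0.53 to 0.42 against 0 min and from -0.19 to 0.76 against 30 min over the fits with 1 replicate left out, and SLC30A1 from -0.0093 to 0.27 against 30 min. Counting only peaks scored over 79, the median, 0 members had an IR peak, which follows from the score of the SLC30A1 peak.

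No clear pairing of the samples by replicate number was seen (correlations of deviations between times from -0.12 to 0.13, 2 of 10 over 0.1). Such correlations cannot exclude a pairing. With a replicate block the members called were 5 against 0 min and 4 against 30 min, and MT1X rose by 2.2 against 0 min. Over all genes the number called differed by over 1.5 times in some settings, from 0 to 144 at 5 min (0 in the chosen fit), from 1 to 74 at 10 min (19), from 4 to 160 at 30 min (46), from 1059 with ERCC scaling to 5877 at 240 min (5676) and from 917 to 5514 against 30 min (5297). ERCC scaling moved the median of all genes by -0.0831, -0.326 and -0.134 at 5, 10 and 30 min. Correction for GC content and length covered 12684 of 13852 genes. Depth limits MT1M and MT1F most, at 0 to 1 and 16 to 37 reads a library.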
